A study of Homo sapiens with 12 samples.

Results

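The genes described here are the matrix metalloproteases (MMP), the secreted ADAMTS proteases and their tissue inhibitors (TIMP). They were chosen by symbol: MMP, ADAMTS or TIMP followed by a number, which took 47 of the 56609 symbols in the count table. They comprise 24 MMP, 19 ADAMTS and 4 TIMP genes, with MMP23A, annotated as a pseudogene, among the MMPs. Of these, 29 passed the filter on low counts and were tested, namely 11 MMP, 15 ADAMTS and 3 TIMP genes.

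RNA was sequenced from A375, an established human melanoma cell line, in 12 libraries that formed 4 groups of 3 replicates. Cells were wild type or carried a knockout of MAPKAPK2, which encodes the kinase MK2, and each genotype received either 500 nM JQ1 or the solvent DMSO over 48 h. JQ1 blocks the bromodomains of the BET proteins, which bind acetylated chromatin, and MK2 is a kinase activated by p38. The labels do not say whether the knockout cells were 1 clone or whether replicates came from separate cultures, so p-values measure the spread between these libraries, which may be technical.

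MMPs are zinc proteases that cut collagens, gelatin and other parts of the extracellular matrix. Most are secreted as inactive precursors, and the membrane-type members stay at the cell surface, where MMP14 together with TIMP2 activates the precursor of MMP2. ADAMTS proteases are secreted relatives that cut proteoglycans such as aggrecan and versican, trim procollagens or cleave von Willebrand factor. TIMPs bind the active sites of these enzymes, and TIMP3, which is held in the matrix, also inhibits several ADAM and ADAMTS proteases. In melanoma these enzymes are known for their part in invasion.

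Promoter sequence is shown for 4 genes that carry the results, the inhibitors TIMP1 and TIMP3, the collagenase MMP8 and the proteoglycanase ADAMTS20. Each is the stretch upstream of the RefSeq start site (GRCh38.p14), from 250 bases before it up to the nearest exon of any gene in GENCODE release 29, written 5′ to 3′ on the strand of the gene. Capitals mark the motifs searched on both strands, which were GGGCGG of the kind bound by SP1, the TATA box letters TATAAA, the ETS type core AGGAAG and the AP-1 type sequence TGANTCA. None of the 4 motifs contains another of them.
TIMP1: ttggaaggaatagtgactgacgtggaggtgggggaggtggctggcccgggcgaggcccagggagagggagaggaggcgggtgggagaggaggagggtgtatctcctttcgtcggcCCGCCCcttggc
TIMP3: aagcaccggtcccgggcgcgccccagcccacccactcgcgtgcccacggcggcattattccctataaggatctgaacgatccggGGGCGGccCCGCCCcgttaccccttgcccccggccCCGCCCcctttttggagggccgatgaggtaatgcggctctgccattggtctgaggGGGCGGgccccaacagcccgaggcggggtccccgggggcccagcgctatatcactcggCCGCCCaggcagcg
MMP8: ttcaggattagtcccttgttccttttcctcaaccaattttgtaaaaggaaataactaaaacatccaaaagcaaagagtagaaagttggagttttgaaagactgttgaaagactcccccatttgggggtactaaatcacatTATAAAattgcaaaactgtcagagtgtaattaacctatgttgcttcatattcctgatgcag
ADAMTS20: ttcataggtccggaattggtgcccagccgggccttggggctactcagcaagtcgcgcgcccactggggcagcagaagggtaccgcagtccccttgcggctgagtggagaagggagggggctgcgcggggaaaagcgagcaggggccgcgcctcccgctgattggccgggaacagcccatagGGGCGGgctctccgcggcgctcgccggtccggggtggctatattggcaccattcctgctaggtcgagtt
The TIMP1 stretch is chrX:47582186-47582312 on the plus strand and holds 1 GGGCGG on the opposite strand. The TIMP3 stretch, chr22:32801455-32801700 on the plus strand, holds 5 GGGCGG. The MMP8 stretch, chr11:102725004-102725204 on the minus strand, holds 1 TATAAA, 110 bases before the RefSeq start. In GENCODE the MMP8 gene begins further upstream, at chr11:102727050, so this stretch lies within its span. The ADAMTS20 stretch, chr12:43552204-43552453 on the minus strand, holds 1 GGGCGG. RefSeq entries were matched for 27 of the 47 members, as 28 windows of 250 bases. GGGCGG was in 19 of these 28 windows and in 42.6% of all 35116 promoter windows of that length. TATAAA was in 7, against 10.7% of all windows. AGGAAG was in 6, against 28.7%, and TGANTCA was in 4, against 6.57%. A match is a description of the letters and not a site shown to be used.

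Libraries held 25316899 to 34594295 estimated counts. MAPKAPK2 itself was at 89.6 ± 2.20 CPM (counts per 1000000 of the scaled library, mean ± SD, n = 3) in wild-type cells with DMSO, 117 ± 4.31 with JQ1, and 12.4 ± 1.15 and 14.4 ± 1.61 in the knockout. Knockout JQ1 replicate 3 stood apart from its group: chi-square per degree of freedom was 26.1 and 27.5 against its replicates, while other replicate pairs gave 3.35 to 7.64. Member calls that changed without it are given with the value they then took. SOX10 (389 to 687 CPM), MITF (25.6 to 44.1) and S100B (27.8 to 49.1), of the melanocyte lineage, were present in every library. The pigment genes PMEL and MLANA reached at most 1.45 CPM, and TYR, TYRP1 and DCT at most 0.456. The summed level of 6 fibroblast markers was 22.7 to 23.3 CPM in wild-type cells with DMSO, 14.3 to 16.8 with JQ1, 17.3 to 18.7 in knockout cells with DMSO and 9.81 to 12.1 with JQ1. Among them PDGFRA was at 4.25 to 11.99 CPM, PDGFRB at 1.71 to 10.9 and LUM at 0.408 to 4.77. COL1A1 reached at most 1.24 CPM, DCN at most 1.04 and COL1A2 at most 0.142. The 3 endothelial markers summed to 9.31 to 11.2, 11.5 to 12.8, 3.37 to 4.39 and 5.96 to 7.81 CPM in the same order, with KDR at 2.75 to 11.9, PECAM1 at 0.449 to 1.29 and CDH5 at most 0.248. The 5 leukocyte markers summed to 17.0 to 19.5, 15.1 to 17.3 and 12.9 to 18.7 CPM in the first 3 groups in that order, and the knockout JQ1 libraries, the lowest of which was at 10.1, all lay below the other groups. CD68 took 8.76 to 16.7 of this and LYZ 0.742 to 2.81, while PTPRC, CD14 and CD3E stayed at or under 0.283. The 3 keratinocyte markers summed to 1.49 to 2.09, 0.503 to 0.879, 1.02 to 1.51 and 0.0406 to 0.317 CPM, with KRT14 up to 2.09, KRT5 at most 0.0406 and KRT1 at 0 in all libraries. The part of these markers in the results below was not tested. In bulk RNA, fewer cells that express a gene and less RNA per cell cannot be told apart.

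JQ1 changed most of the tested members in both genotypes. In wild-type cells 18 of 29 passed an adjusted p of 0.05 (62.1%, with 33.1% of all 21698 tested genes called), 6 higher and 12 lower. All genes were called higher in 16.9% and lower in 16.2%. In knockout cells 20 of 29 passed (69.0%, against 34.4% of all genes), 8 higher and 12 lower, where 16.7% of all genes were higher and 17.8% lower. Scaling by library totals alone moved the median log2 fold change of all genes by −0.13 in wild type and −0.12 in knockout. Under it the split was 5 higher and 13 lower in wild type and 5 higher and 14 lower in knockout. The members' median log2 fold change was −0.38 in wild type and −0.31 in knockout, beside −0.03 and −0.00 for all genes. Their median absolute change was 0.56 and 0.80, beside 0.29 and 0.30.

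The drug comparisons in wild-type and knockout cells share no library. They had 16 called members in common, which is 88.9% of the wild-type calls and 80% of the knockout calls, and all 16 moved the same way in both, 6 higher and 10 lower. The matching shares over all genes were not worked out, so this overlap cannot be read as particular to the members. Without knockout JQ1 replicate 3 the knockout count was again 20, with 7 higher and 13 lower: ADAMTS6 and MMP17 were lost, and MMP25 (−1.21, adjusted p = 0.0398) and TIMP2 (−0.45, adjusted p = 0.00228) were gained. The wild-type count was then 20, with MMP17 (0.32, adjusted p = 0.0149) and TIMP2 (−0.26, adjusted p = 0.0227) gained. ADAMTS1 and MMP25 were called in wild type only, and ADAMTS3, ADAMTS6, MMP17 and MMP19 in knockout only. A call in one genotype and not the other is no test of a difference, and that test is given below. The CPM of the 3 JQ1 and the 3 DMSO libraries did not overlap for 21 members in wild type (50.4% of all genes) and for 19 in knockout (42.3%).

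**Figure D1:**
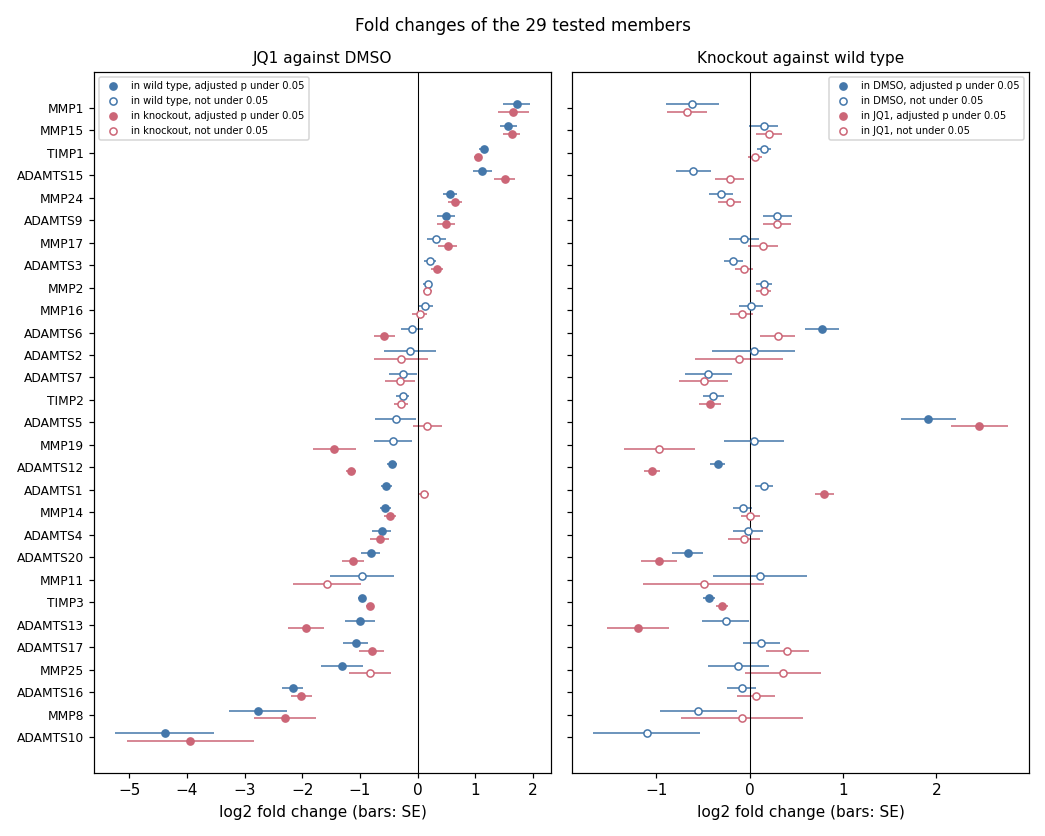
Log2 fold changes (x axis, bars are the SE) of the 29 tested members (y axis), for JQ1 against DMSO on the left and knockout against wild type on the right. Filled points have an adjusted p under 0.05, 18 and 20 of them on the left and 5 and 7 on the right. ADAMTS10 is not drawn for knockout against wild type in JQ1, where its groups held 2 and 1 counts.

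Among the inhibitors, JQ1 raised TIMP1 and lowered TIMP3 in both genotypes. TIMP1, a secreted inhibitor of most soluble MMPs (chrX:47582313-47586789), stood at 101, 102 and 100 CPM in wild-type cells with DMSO, 233, 217 and 218 with JQ1 in the same cells, 108, 119 and 110 in knockout cells with DMSO and 222, 211 and 263 with JQ1 there. Every JQ1 library lay above every DMSO library. The rise was 1.14 ± 0.07 on the log2 scale in wild type (SE, n = 3 per group, edgeR's quasi-likelihood test, adjusted p = 4.02e-08) and 1.04 ± 0.07 in knockout (adjusted p = 7.31e-08). The knockout itself moved TIMP1 by 0.15 ± 0.07 in DMSO (adjusted p = 0.264) and 0.06 ± 0.07 in JQ1 (adjusted p = 0.722), which did not pass. Without knockout JQ1 replicate 3 the DMSO difference of TIMP1 was called (adjusted p = 0.0474).

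TIMP3, the matrix-bound inhibitor (chr22:32801701-32863043), had the highest CPM of the 3, a measure that takes no account of transcript length. It stood at 1066, 1028 and 1033 CPM in wild-type cells with DMSO, 541, 544 and 506 with JQ1 in the same cells, 746, 733 and 837 in knockout cells with DMSO and 412, 412 and 475 with JQ1 there. The 4 groups did not overlap, with wild-type DMSO highest and knockout JQ1 lowest. JQ1 lowered it, with a log2 change of −0.98 ± 0.07 in wild type (adjusted p = 5.94e-08) and −0.84 ± 0.07 in knockout (adjusted p = 2.25e-07). The knockout lowered it, with a log2 change of −0.43 ± 0.07 in DMSO (adjusted p = 0.000622) and −0.29 ± 0.07 in JQ1 (adjusted p = 0.0105). The last call was lost without wild-type JQ1 replicate 2 (adjusted p = 0.0526).

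TIMP2, which takes part in the activation of MMP2, stood at 59.4, 64.9 and 62.2 CPM in wild-type cells with DMSO, 54.8, 54.0 and 46.8 with JQ1 in the same cells, 40.4, 52.1 and 50.1 in knockout cells with DMSO and 35.6, 33.8 and 46.4 with JQ1 there. By mean, wild-type DMSO was the highest group and knockout JQ1 the lowest, and the JQ1 and DMSO libraries of the knockout overlapped. The knockout lowered TIMP2 in JQ1, with a log2 change of −0.42 ± 0.12 (adjusted p = 0.0373). In DMSO its difference was −0.39 ± 0.12 (adjusted p = 0.0544). JQ1 gave −0.26 ± 0.11 in wild type (adjusted p = 0.0977) and −0.29 ± 0.12 in knockout (adjusted p = 0.0656). The 1 call for TIMP2 was lost without any 1 of 6 libraries: replicate 1 (adjusted p = 0.124) or 2 (0.135) of knockout JQ1, replicate 2 (0.051) or 3 (0.0523) of wild-type DMSO and wild-type JQ1 replicate 1 (0.13) or 2 (0.129). The other 3 comparisons of TIMP2 were called in some of the 20 alternatives, 6 for the knockout in DMSO (adjusted p down to 0.000834), 4 for JQ1 in wild type (down to 0.00545) and 5 for JQ1 in knockout (down to 0.00228). TIMP2 shares exon sequence with CEP295NL on the same strand, so its estimates rest on how reads were divided.

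**Figure D2:**
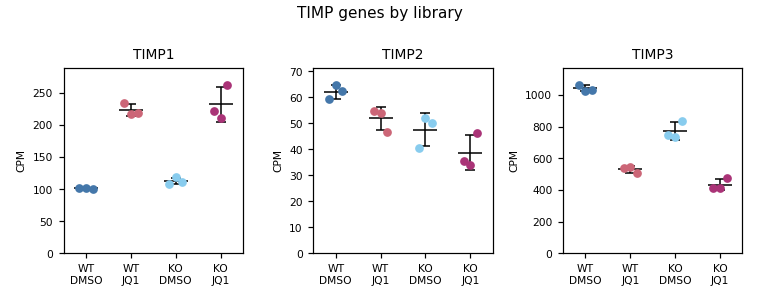
Levels of the 3 tested TIMP genes in CPM (y axis, linear from 0) by group (x axis, WT wild type, KO knockout). Points are libraries and bars the mean ± SD of 3. TIMP1 rises from 101 to 223 CPM in wild type with JQ1 and TIMP3 falls from 1042 to 530.

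Divided by transcript length, the make-up of the TIMP pool changed with the drug. Per kilobase of the longest annotated transcript, TIMP3 made up 67.4 ± 0.658% of the summed TIMP level in wild-type DMSO and 34.6 ± 0.939% in wild-type JQ1. TIMP1 went from 27.5 ± 0.394% to 61.1 ± 1.12% (SD, n = 3). In knockout cells TIMP3 went from 59.1 ± 2.45% to 29.8 ± 0.878%, and TIMP1 from 36.3 ± 2.21% to 66.9 ± 0.701%. TIMP2 stayed between 3.33% and 5.07% in the group means. The summed level was 336 ± 3.62 CPM per kilobase in wild-type cells with DMSO, 333 ± 12.1 with JQ1, 284 ± 12.2 in knockout cells with DMSO and 316 ± 34.6 with JQ1. These shares and sums were not tested. They depend on the length used: with the median transcript length TIMP3 held 55.7%, 23.7%, 46.4% and 19.8% in that order of groups. With that length the summed level was higher with JQ1, at 406 ± 3.63 and 486 ± 18.1 CPM per kilobase in wild type and 361 ± 13.0 and 476 ± 53.5 in knockout. In knockout DMSO the shares of TIMP1 (47.3% to 52.0%) and TIMP3 (43.8% to 48.8%) then overlapped between libraries.

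**Figure D3:**
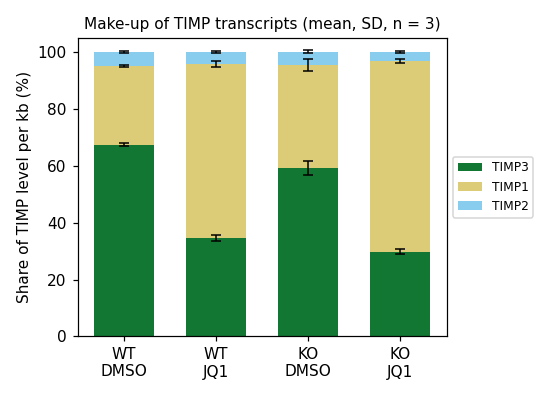
Share of the summed TIMP level per kilobase (y axis, percent) held by TIMP3, TIMP1 and TIMP2 in each group (x axis), with the longest transcript as length. Bars are means of 3 libraries and the error bars the SD of each share. TIMP3 holds 67.4% in wild-type DMSO and 34.6% in wild-type JQ1.

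Of the collagenases, which cut fibrillar collagen, MMP1 rose and MMP8 fell with JQ1. MMP1 (chr11:102789920-102798160) stood at 0.417, 0.602 and 0.495 CPM in wild-type cells with DMSO, 1.51, 1.67 and 1.77 with JQ1 in the same cells, 0.417, 0.275 and 0.281 in knockout cells with DMSO and 1.10, 1.14 and 0.886 with JQ1 there. All 6 JQ1 libraries were above all 6 DMSO libraries. MMP1 rose by 1.71 ± 0.23 in wild type (adjusted p = 4.64e-05) and by 1.66 ± 0.26 in knockout (adjusted p = 0.000178). In the knockout it was lower by an amount that did not pass, −0.61 ± 0.28 in DMSO (adjusted p = 0.298) and −0.67 ± 0.21 in JQ1 (adjusted p = 0.0724). The SE in DMSO is smaller than the unadjusted p of that edgeR test, 0.0662, implies. MMP1 overlaps exons of WTAPP1 on the opposite strand, and the use of strand in counting is not given in the sources used here.

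MMP8, the neutrophil collagenase (chr11:102711795-102727050), stood at 2.35, 2.23 and 1.81 CPM in wild-type cells with DMSO, 0.440, 0 and 0.444 with JQ1 in the same cells, 1.89, 1.24 and 1.23 in knockout cells with DMSO and 0.533, 0.122 and 0.222 with JQ1 there. The JQ1 libraries were all below the DMSO libraries, and wild-type JQ1 replicate 2 had no count. MMP8 fell by 2.77 ± 0.50 in wild type (adjusted p = 0.000586) and fell by 2.31 ± 0.54 in knockout (adjusted p = 0.00363). MMP1 and MMP8 lie 62869 bases apart in a cluster of 9 MMP genes on chromosome 11 (chr11:102520508-102955734). They were the only 2 of the 9 that passed the filter, and they moved in opposite directions. MMP13, the other collagenase of the cluster, was not tested.

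MMP2, gelatinase A, which cuts denatured and basement membrane collagen, stood at 147, 156 and 150 CPM in wild-type cells with DMSO, 173, 184 and 153 with JQ1 in the same cells, 151, 179 and 174 in knockout cells with DMSO and 175, 184 and 207 with JQ1 there. The highest DMSO and lowest JQ1 libraries overlapped in both genotypes. The differences were 0.17 ± 0.08 with JQ1 in wild type (adjusted p = 0.133) and 0.17 ± 0.08 in knockout (adjusted p = 0.138), and 0.15 ± 0.08 for the knockout in each treatment (adjusted p = 0.331 in DMSO and 0.329 in JQ1). None passed, although JQ1 in wild type was called for MMP2 in 2 of 20 alternatives. MMP2 shares exon sequence with AC007336.3 on the same strand, so its estimates also rest on how reads were divided.

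The membrane-type MMPs moved apart under JQ1: MMP14 fell while MMP15 and MMP24 rose, and MMP16 did not pass in any comparison. MMP14, or MT1-MMP (chr14:22836557-22849027), stood at 71.7, 79.5 and 74.0 CPM in wild-type cells with DMSO, 51.6, 53.1 and 48.0 with JQ1 in the same cells, 67.8, 76.4 and 69.8 in knockout cells with DMSO and 43.9, 47.4 and 62.0 with JQ1 there. All JQ1 libraries lay below all DMSO libraries, with knockout JQ1 replicate 3 the closest. MMP14 fell by 0.56 ± 0.10 in wild type (adjusted p = 0.000671) and fell by 0.48 ± 0.10 in knockout (adjusted p = 0.00209).

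MMP15, or MT2-MMP (chr16:58025566-58046901), a close relative of MMP14, stood at 7.93, 8.04 and 7.72 CPM in wild-type cells with DMSO, 25.5, 24.0 and 20.9 with JQ1 in the same cells, 7.69, 9.03 and 9.62 in knockout cells with DMSO and 22.1, 24.2 and 34.8 with JQ1 there. The lowest JQ1 library was more than 10 CPM above the highest DMSO library. MMP15 rose by 1.57 ± 0.15 in wild type (adjusted p = 1.88e-06) and by 1.63 ± 0.15 in knockout (adjusted p = 1.12e-06).

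MMP24, or MT5-MMP (chr20:35226654-35277000), stood at 5.42, 5.03 and 6.46 CPM in wild-type cells with DMSO, 8.10, 8.65 and 8.16 with JQ1 in the same cells, 4.23, 4.81 and 4.70 in knockout cells with DMSO and 7.31, 6.21 and 7.91 with JQ1 there. Within each genotype the JQ1 libraries lay above the DMSO libraries. MMP24 rose by 0.55 ± 0.12 in wild type (adjusted p = 0.00258) and by 0.65 ± 0.13 in knockout (adjusted p = 0.00101). It overlaps exons of MMP24OS on the opposite strand.

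MMP16, or MT3-MMP (chr8:88032009-88328025), had the highest CPM of the MMPs, at 490, 499 and 474 in wild-type cells with DMSO, 497, 516 and 591 with JQ1 in the same cells, 544, 496 and 439 in knockout cells with DMSO and 565, 572 and 376 with JQ1 there. The libraries of knockout JQ1 spanned the values of all other groups except wild-type JQ1 replicate 3. No comparison of MMP16 passed, with adjusted p from 0.464 upwards.

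Of the lipid-anchored membrane-type members, the rise of MMP17 was called in knockout cells and the fall of MMP25 in wild-type cells. Neither response to JQ1 passed the test of a difference between the genotypes. MMP17 stood at 15.7, 16.5 and 14.3 CPM in wild-type cells with DMSO, 21.3, 18.9 and 17.8 with JQ1 in the same cells, 12.9, 16.3 and 15.4 in knockout cells with DMSO and 18.3, 16.8 and 28.5 with JQ1 there. The JQ1 libraries were above the DMSO libraries in each genotype, and knockout JQ1 replicate 3 was the highest. The change was 0.52 ± 0.16 in knockout (adjusted p = 0.0223) and 0.32 ± 0.16 in wild type (adjusted p = 0.147). The difference between them, 0.20 ± 0.23, did not pass (adjusted p = 0.872). The wild-type rise was called in 3 of 20 alternatives, among them without knockout JQ1 replicate 3 (adjusted p = 0.0149). The knockout call was lost without knockout JQ1 replicate 3 (adjusted p = 0.111), without knockout DMSO replicate 1 (0.0885) and with scaling by library totals (0.06).

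MMP25 was at 0.536, 0.637 and 0.770 CPM in wild-type cells with DMSO, 0.251, 0.297 and 0.237 with JQ1 in the same cells, 0.513, 0.824 and 0.456 in knockout cells with DMSO and 0.305, 0.203 and 0.475 with JQ1 there. The wild-type groups did not overlap and those of the knockout did. The change was −1.31 ± 0.36 in wild type (adjusted p = 0.0124) and −0.83 ± 0.36 in knockout (adjusted p = 0.0952). The difference between them, 0.48 ± 0.52, did not pass (adjusted p = 0.858). The wild-type call was lost without wild-type DMSO replicate 3 (adjusted p = 0.0569). Without knockout JQ1 replicate 3 the fall in knockout was called (−1.21, adjusted p = 0.0398).

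MMP19, a secreted protease with basement membrane substrates, fell in knockout cells. Its levels were 1.94, 2.05 and 1.43 CPM in wild-type cells with DMSO, 1.35, 1.71 and 0.976 with JQ1 in the same cells, 1.83, 1.96 and 1.79 in knockout cells with DMSO and 0.838, 0.162 and 0.981 with JQ1 there. The knockout groups did not overlap and the wild-type groups did. The change was −1.45 ± 0.37 in knockout (adjusted p = 0.00692) and −0.43 ± 0.33 in wild type (adjusted p = 0.359), and the difference between them, −1.02 ± 0.50, did not pass (adjusted p = 0.618). Without knockout JQ1 replicate 3 MMP19 was also called lower in the knockout in JQ1 (−1.38, adjusted p = 0.0496). MMP11, stromelysin-3, was at 1.13, 0.814 and 0.880 CPM in wild-type cells with DMSO, 0.534, 0.668 and 0.266 with JQ1 in the same cells, 0.577, 1.27 and 1.23 in knockout cells with DMSO and 0, 0.690 and 0.348 with JQ1 there. It was lower with JQ1 in each mean, but the knockout groups overlapped and its change there was −1.57 ± 0.59 (adjusted p = 0.0534), which did not pass. MMP11 was called there in 6 of 20 alternatives, with adjusted p down to 0.000870 with no filter on low counts and a log2 change down to −2.42 without knockout JQ1 replicate 2 (adjusted p = 0.0143).

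**Figure D4:**
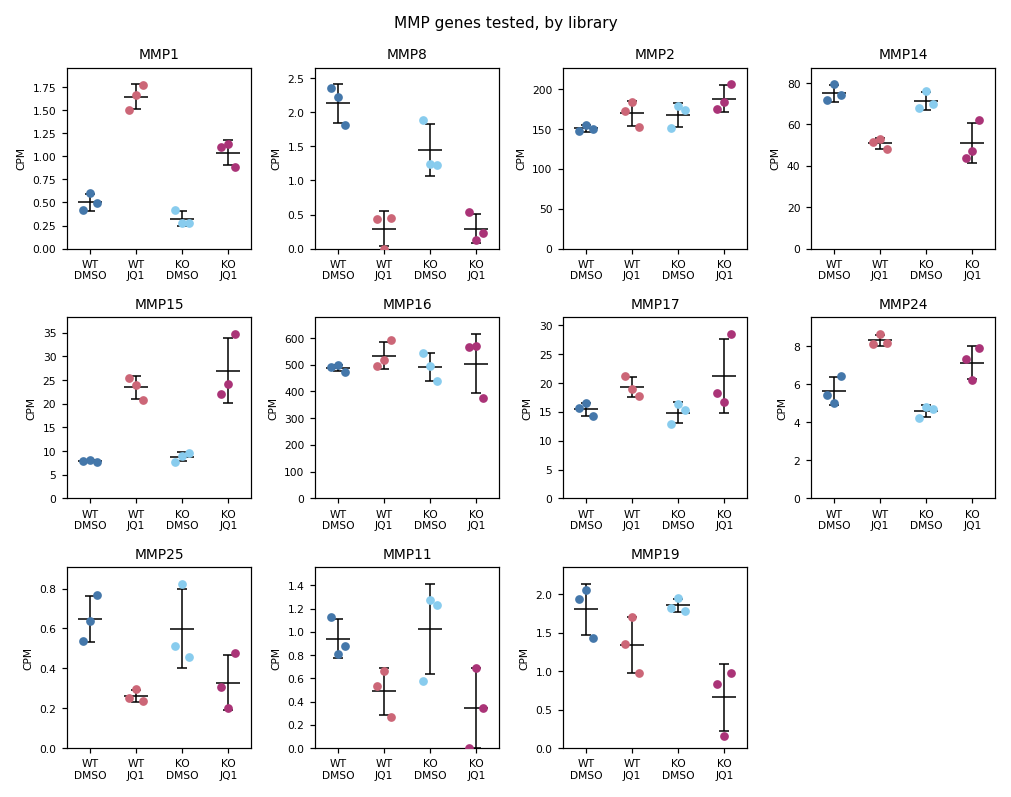
Levels of the 11 tested MMP genes in CPM (y axes, linear from 0, scaled for each gene) by group (x axis, WT wild type, KO knockout). Points are libraries and bars the mean ± SD of 3, with bars that would pass below 0 ending there. MMP1 and MMP15 are higher and MMP8 and MMP14 lower in JQ1 in both genotypes, and no MMP passed the test for the knockout.

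More ADAMTS genes fell than rose with JQ1. In wild type 8 of 15 fell (53.3%, against 16.2% of all genes) and 2 rose (13.3%, against 16.9%). In knockout 8 fell (53.3%, against 17.8%) and 3 rose (20%, against 16.7%). The members that cut aggrecan or versican did not move together. ADAMTS4 fell, ADAMTS9 and ADAMTS15 rose, ADAMTS20 fell, ADAMTS1 fell in wild type, and ADAMTS5 did not pass. ADAMTS15 (chr11:130448974-130476641) stood at 1.73, 1.59 and 2.14 CPM in wild-type cells with DMSO, 4.24, 4.23 and 3.49 with JQ1 in the same cells, 1.28, 0.996 and 1.33 in knockout cells with DMSO and 3.20, 3.21 and 3.86 with JQ1 there. All JQ1 libraries lay above all DMSO libraries. It rose by 1.12 ± 0.16 in wild type (adjusted p = 0.000104) and by 1.51 ± 0.18 in knockout (adjusted p = 1.19e-05), while the knockout in DMSO gave −0.60 ± 0.19 (adjusted p = 0.0625).

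ADAMTS9 stood at 4.44, 5.31 and 5.77 CPM in wild-type cells with DMSO, 8.07, 8.09 and 5.71 with JQ1 in the same cells, 5.80, 5.94 and 7.37 in knockout cells with DMSO and 8.34, 9.82 and 8.61 with JQ1 there. Wild-type JQ1 replicate 3 lay within the DMSO range. It rose by 0.49 ± 0.15 in wild type (adjusted p = 0.0240) and by 0.49 ± 0.15 in knockout (adjusted p = 0.0223). The wild-type call for ADAMTS9 was lost without wild-type DMSO replicate 1 (adjusted p = 0.106) or 2 (0.0512) and without wild-type JQ1 replicate 1 (0.102) or 2 (0.0985). The knockout call was lost without knockout DMSO replicate 1 (0.0856) or 2 (0.0835) or knockout JQ1 replicate 2 (0.0817), and both were lost with library totals (0.0837 and 0.0712).

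ADAMTS4 (chr1:161184308-161199056), an aggrecanase, was at 4.17, 4.18 and 4.70 CPM in wild-type cells with DMSO, 3.17, 2.45 and 2.84 with JQ1 in the same cells, 4.14, 5.36 and 3.44 in knockout cells with DMSO and 3.01, 2.60 and 2.56 with JQ1 there. JQ1 libraries were below DMSO libraries in both genotypes. It fell by 0.62 ± 0.16 in wild type (adjusted p = 0.00911) and fell by 0.66 ± 0.17 in knockout (adjusted p = 0.00662).

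ADAMTS20 (chr12:43353866-43551921), whose mouse counterpart is needed for melanoblasts to colonise the skin, fell with the drug and with the knockout. It stood at 5.81, 6.13 and 6.16 CPM in wild-type cells with DMSO, 2.92, 3.08 and 4.23 with JQ1 in the same cells, 4.10, 3.78 and 3.55 in knockout cells with DMSO and 2.28, 1.54 and 1.42 with JQ1 there. Wild-type DMSO was above and knockout JQ1 below every other library. JQ1 lowered it, with a log2 change of −0.82 ± 0.17 in wild type (adjusted p = 0.00167) and −1.13 ± 0.19 in knockout (adjusted p = 0.000289). The knockout lowered it, with a log2 change of −0.66 ± 0.17 in DMSO (adjusted p = 0.0233) and −0.97 ± 0.19 in JQ1 (adjusted p = 0.00440). The call for the knockout in DMSO was lost when any 1 of 5 libraries was left out: replicate 2 (adjusted p = 0.085) or 3 (0.107) of knockout DMSO, or replicate 1 (0.0648), 2 (0.0878) or 3 (0.0864) of wild-type DMSO.

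ADAMTS1 and ADAMTS5, neighbours on chromosome 21 with 72502 bases between them, are both aggrecan- and versican-cutting enzymes and were both higher in the knockout with JQ1. ADAMTS5 (chr21:26917912-26966513) stood at 0.656, 0.389 and 0.275 CPM in wild-type cells with DMSO, 0.251, 0.408 and 0.355 with JQ1 in the same cells, 1.51, 2.06 and 1.44 in knockout cells with DMSO and 2.06, 1.95 and 1.61 with JQ1 there. All 6 knockout libraries were above all 6 wild-type libraries. The knockout raised it by 1.92 ± 0.29 in DMSO (adjusted p = 0.000660) and by 2.46 ± 0.30 in JQ1 (adjusted p = 0.000100), the largest called changes of any member between the genotypes.

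ADAMTS1 (chr21:26835747-26845409) stood at 11.1, 10.6 and 10.3 CPM in wild-type cells with DMSO, 7.79, 7.68 and 6.48 with JQ1 in the same cells, 12.3, 12.2 and 10.9 in knockout cells with DMSO and 12.5, 12.1 and 13.6 with JQ1 there. Wild-type JQ1 lay below all other libraries. JQ1 lowered it, with a log2 change of −0.54 ± 0.10 in wild type (adjusted p = 0.000659), and in knockout the change was 0.11 ± 0.10 (adjusted p = 0.443). The knockout raised it in JQ1 by 0.80 ± 0.10 (adjusted p = 0.000103). The difference between the drug responses was 0.65 ± 0.14, with an unadjusted p of 0.000327 and an adjusted p of 0.111, which did not pass. DESeq2 called it (adjusted p = 0.00863).

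ADAMTS12 was the 1 member whose response to JQ1 differed between the genotypes, where 0.134% of all genes were called, 0.0323% higher and 0.101% lower. The protease, which cuts cartilage oligomeric matrix protein (chr5:33523535-33892192), stood at 45.9, 39.8 and 41.3 CPM in wild-type cells with DMSO, 32.6, 30.4 and 30 with JQ1 in the same cells, 34.6, 29.7 and 36.0 in knockout cells with DMSO and 15.6, 14.9 and 14.5 with JQ1 there. Knockout JQ1 was below every other library, and wild-type JQ1 and knockout DMSO overlapped. JQ1 lowered it, with a log2 change of −0.45 ± 0.08 in wild type (adjusted p = 0.000627) and −1.15 ± 0.09 in knockout (adjusted p = 1.35e-07), and the difference was −0.70 ± 0.12 (adjusted p = 0.0306). That call was lost when 8 of the 12 libraries were left out in turn: knockout DMSO replicate 1 (adjusted p = 0.111) or 3 (0.125), knockout JQ1 replicate 2 (0.0798), replicate 2 (0.15) or 3 (0.144) of wild-type DMSO, and wild-type JQ1 replicate 1 (0.115), 2 (0.102) or 3 (0.0615). The difference stayed between −0.86 and −0.65 over all alternatives.

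Between genotypes, ADAMTS12 was lower in the knockout, with −0.34 ± 0.08 in DMSO (adjusted p = 0.0169) and −1.05 ± 0.09 in JQ1 (adjusted p = 1.98e-06). The call in DMSO did not hold without replicate 2 of knockout DMSO (0.115) or replicate 1 (0.132) or 3 (0.0581) of wild-type DMSO. With limma on the authors' normalized signal the ADAMTS12 difference in DMSO was −0.12 (adjusted p = 0.608).

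ADAMTS16 (chr5:5140330-5320304), whose substrates are less well known, lies on chromosome 5 like ADAMTS12. It stood at 9.36, 9.10 and 8.52 CPM in wild-type cells with DMSO, 1.82, 2.19 and 1.98 with JQ1 in the same cells, 7.89, 8.62 and 8.95 in knockout cells with DMSO and 1.45, 1.87 and 2.88 with JQ1 there. Every JQ1 library was under 3 CPM and every DMSO library above 7. It fell by 2.17 ± 0.18 in wild type (adjusted p = 4.04e-07) and fell by 2.02 ± 0.18 in knockout (adjusted p = 7.98e-07).

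ADAMTS13, which cleaves von Willebrand factor, was at 1.88, 1.49 and 1.48 CPM in wild-type cells with DMSO, 0.911, 0.928 and 0.592 with JQ1 in the same cells, 1.76, 1.24 and 1.05 in knockout cells with DMSO and 0.419, 0.203 and 0.412 with JQ1 there. The JQ1 libraries were below all DMSO libraries, with knockout JQ1 lowest. It fell by 1.0 ± 0.27 in wild type (adjusted p = 0.00926) and fell by 1.94 ± 0.31 in knockout (adjusted p = 0.000210), and the difference, −0.94 ± 0.42, did not pass (adjusted p = 0.568). With limma on the authors' normalized signal the ADAMTS13 fall in wild type did not pass (adjusted p = 0.165). The knockout lowered ADAMTS13 in JQ1, with a log2 change of −1.19 ± 0.33 (adjusted p = 0.0383), a call lost when 1 library was left out in 7 of the 12 cases: knockout DMSO replicate 2 (adjusted p = 0.0508), replicate 1 (0.0589) or 2 (0.123) of knockout JQ1, replicate 2 (0.0543) or 3 (0.0534) of wild-type DMSO, and wild-type JQ1 replicate 1 (0.123) or 2 (0.124).

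ADAMTS17, which acts in fibrillin-rich matrix, was at 1.58, 1.77 and 1.59 CPM in wild-type cells with DMSO, 0.660, 0.816 and 0.858 with JQ1 in the same cells, 2.05, 1.61 and 1.72 in knockout cells with DMSO and 0.876, 0.852 and 1.33 with JQ1 there. JQ1 libraries lay below DMSO libraries. It fell by 1.08 ± 0.22 in wild type (adjusted p = 0.00137) and fell by 0.80 ± 0.21 in knockout (adjusted p = 0.00848). ADAMTS10, which also acts on fibrillin microfibrils, was at 0.745, 0.496 and 0.357 CPM in wild-type cells with DMSO, 0, 0 and 0.0592 with JQ1 in the same cells, 0.449, 0.206 and 0.0702 in knockout cells with DMSO and 0, 0 and 0.0317 with JQ1 there. Most JQ1 libraries had no count. Summed over 3 libraries its counts went from 52 to 2 in wild type, a ratio of 26.8 (exact 95% interval 7.05 to 227), and from 22 to 1 in knockout, a ratio of 22.2 (3.58 to 915). These ratios are corrected for the unscaled library totals, and the intervals cover counting error only. The edgeR fit gave smaller falls, 20.9-fold in wild type (adjusted p = 0.00115) and 15.4-fold in knockout (adjusted p = 0.0119). The knockout call for ADAMTS10 was lost without knockout DMSO replicate 1 (0.0721).

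ADAMTS6 and ADAMTS3 were called in knockout cells. ADAMTS6, a relative of ADAMTS10, was at 3.16, 3.43 and 3.38 CPM in wild-type cells with DMSO, 3.39, 2.78 and 3.08 with JQ1 in the same cells, 5.84, 6.59 and 4.67 in knockout cells with DMSO and 5.03, 3.49 and 2.94 with JQ1 there. Knockout DMSO was above both wild-type groups and overlapped knockout JQ1. The knockout raised ADAMTS6 in DMSO by 0.78 ± 0.18 (adjusted p = 0.0145), and in JQ1 the difference was 0.30 ± 0.19 (adjusted p = 0.418). JQ1 lowered it in knockout, with a log2 change of −0.58 ± 0.18 (adjusted p = 0.0216). In wild type the change with JQ1 was −0.10 ± 0.19 (adjusted p = 0.718). The difference between the drug responses, −0.48 ± 0.26, did not pass (adjusted p = 0.660). The first of these calls was lost without replicate 2 of knockout DMSO (0.0674) or replicate 1 of wild-type DMSO (0.061). The second was lost without knockout DMSO replicate 1 (0.0571) or 2 (0.0982) or knockout JQ1 replicate 2 (0.0726) or 3 (0.0856).

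ADAMTS3, a procollagen N-propeptidase, was at 14.9, 16.4 and 17.0 CPM in wild-type cells with DMSO, 19.6, 18.3 and 18.2 with JQ1 in the same cells, 15.9, 14.1 and 12.8 in knockout cells with DMSO and 17.9, 20 and 16 with JQ1 there. JQ1 libraries were above DMSO libraries within each genotype, narrowly so in knockout. The change was 0.33 ± 0.10 in knockout (adjusted p = 0.0203) and 0.21 ± 0.10 in wild type (adjusted p = 0.117). The difference between them, 0.11 ± 0.14, did not pass (adjusted p = 0.886). The knockout call was lost without knockout DMSO replicate 2 (0.0663) or 3 (0.0965), without knockout JQ1 replicate 2 (0.0937) and with library totals (0.129). ADAMTS2 (0.152 to 0.456 CPM) and ADAMTS7 (1.83 to 4.08 CPM) passed no test.

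**Figure D5:**
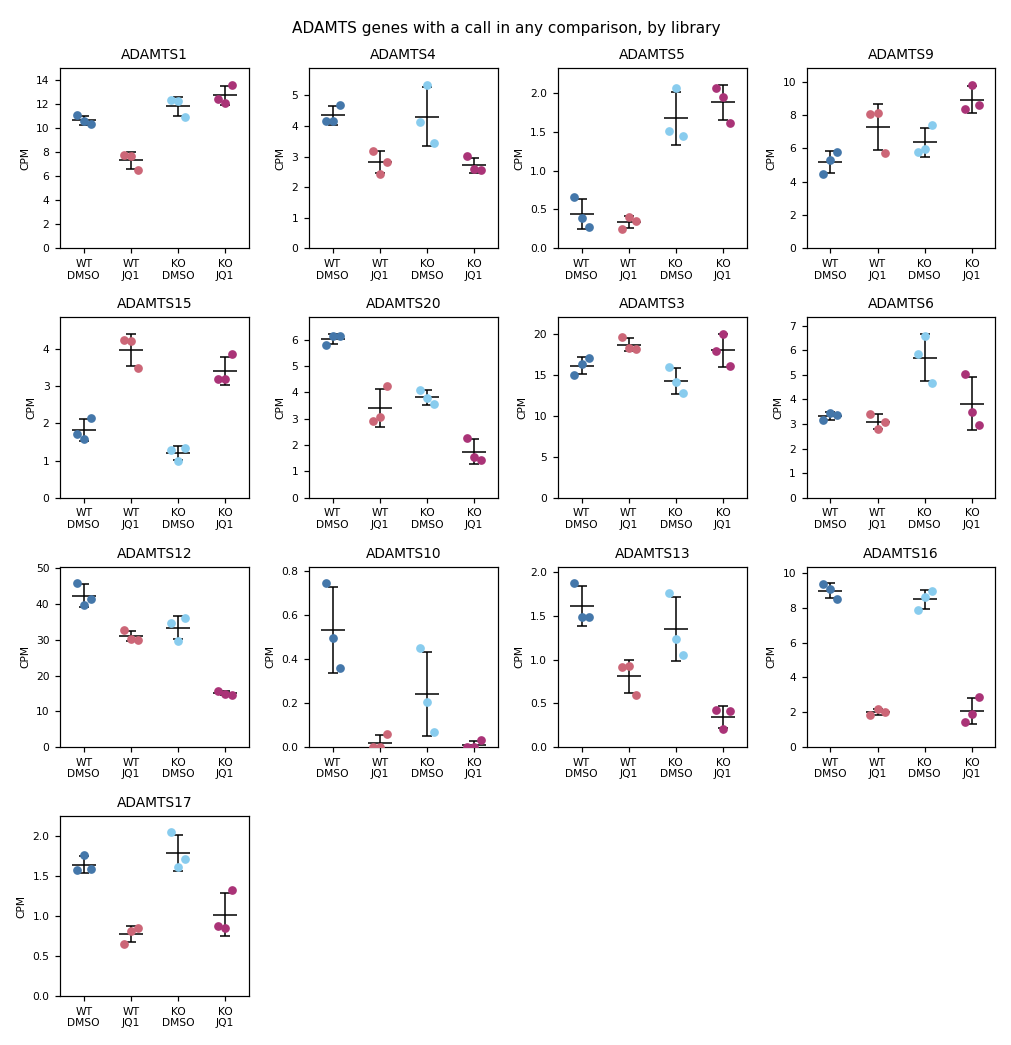
Levels of the 13 ADAMTS genes called in any comparison in CPM (y axes, linear from 0, scaled for each gene) by group (x axis, WT wild type, KO knockout). Points are libraries and bars the mean ± SD of 3, with bars that would pass below 0 ending there. ADAMTS5 is higher in all knockout libraries, ADAMTS16 is lower in all JQ1 libraries, and ADAMTS12 is lowest in knockout JQ1 at 15 CPM.

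The knockout changed fewer members than the drug. In DMSO 5 of 29 passed (17.2%, against 7.92% of all genes). ADAMTS5 and ADAMTS6 were higher (3.47% of all genes were higher), and ADAMTS12, ADAMTS20 and TIMP3 were lower (4.44% of all genes). In JQ1 7 passed (24.1%, against 8.57%), of which ADAMTS1 and ADAMTS5 were higher (3.01% of all genes) and ADAMTS12, ADAMTS13, ADAMTS20, TIMP2 and TIMP3 lower (5.56%). No MMP among 11 was called by edgeR's test in either treatment. At an unadjusted p under 0.05 there was 1 in DMSO and 2 in JQ1. DESeq2 and limma on the authors' normalized signal also called 0 of 11. MMP19, at −0.97 ± 0.38 in JQ1 (adjusted p = 0.151), was called when knockout JQ1 replicate 3 was left out (−1.38, adjusted p = 0.0496) or when no filter on low counts was used (adjusted p = 0.0259). The groups did not overlap for 12 members in DMSO (29.6% of all genes) and 10 in JQ1 (23.1%). The members' median absolute log2 fold change was 0.17 in DMSO, beside 0.16 for all genes, and 0.29 in JQ1, beside 0.16. Their median log2 fold change was −0.07 in DMSO and −0.08 in JQ1, beside −0.00 for all genes in each. The count in DMSO was 2 without replicate 2 of knockout DMSO or replicate 1 of wild-type DMSO, 3 without replicate 3 of wild-type DMSO and 8 without knockout JQ1 replicate 3, which added ADAMTS15 (−0.60, adjusted p = 0.0424), TIMP1 (0.15, adjusted p = 0.0474) and TIMP2 (−0.39, adjusted p = 0.00614). The count in JQ1 was 4 without wild-type JQ1 replicate 2 and 8 without knockout JQ1 replicate 3. The knockout comparison in a treatment and the drug comparison in a genotype share libraries, so their values stand side by side without an overlap.

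Levels can be set between genes only per length. Per kilobase of the longest transcript in wild-type DMSO, the order was TIMP3 (226 ± 4.43 CPM per kilobase), TIMP1 (92.3 ± 0.856), MMP16 (42.2 ± 1.10), MMP2 (40.4 ± 1.09), MMP14 (20.1 ± 1.08), TIMP2 (17.0 ± 0.749) and MMP17 (6.42 ± 0.465). MMP16 and MMP2 overlapped in their libraries, and the other neighbours did not. TIMP1 came before TIMP3 in wild-type JQ1, at 203 ± 8.47 against 115 ± 4.64. This order rests on the length: with the median transcript length MMP16 came before TIMP3 in wild-type DMSO.

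The 18 members that did not pass the filter had few or no counts. MMP7, MMP20, MMP26 and MMP27 were at 0 in all 12 libraries, which allows up to 3 counts, or 0.0867 to 0.118 CPM, in a library. The other 14 were ADAMTS8, ADAMTS14, ADAMTS18, ADAMTS19, MMP3, MMP9, MMP10, MMP12, MMP13, MMP21, MMP23A, MMP23B, MMP28 and TIMP4. Their highest count in a library was 15, in MMP21. TGANTCA was found in the promoter windows of 4 of the 27 members that had one. Of these, MMP7 and MMP20 were at 0 and MMP10 was not tested. ADAMTS12, with the match 84 bases before its start, was at 42.3 CPM in wild-type DMSO. Members with no matched window, among them MMP1, MMP3, MMP9, MMP12 and MMP13, were not searched.

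Other genes of the pathway were counted by list. Of 13 tested transcription factors with sites in MMP promoters, 6 rose and 1 fell with JQ1 in wild type. In knockout 8 rose and 1 fell. Among all genes, 16.9% rose and 16.2% fell with JQ1 in wild type, and 16.7% rose and 17.8% fell in knockout. The risers of this list in wild type were all FOS and JUN family members, which form AP-1. FOS went from 9.95 to 19.2 CPM in wild type (0.95 ± 0.09, adjusted p = 1.44e-06) and JUN from 5.23 to 11.1 (1.08 ± 0.15, adjusted p = 6.47e-05). RUNX2 fell from 5.26 to 2.26 (−1.21 ± 0.18, adjusted p = 0.000117). In the knockout 1 of 13 changed in each treatment, ETS1, by −0.36 ± 0.06 in DMSO (adjusted p = 0.00109). For the knockout 7.92% of all genes were called in DMSO and 8.57% in JQ1, so 1 of 13 is near that share.

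Of 17 tested activators and inhibitors of matrix proteases outside the TIMPs, 8 rose and 5 fell in wild type with JQ1. In knockout 7 rose and 5 fell. The shares of all genes were 16.9% higher and 16.2% lower in wild type, and 16.7% and 17.8% in knockout. A2M, a broad protease inhibitor, fell with JQ1 from 77.2 to 20.4 CPM in wild type (−1.92 ± 0.10, adjusted p = 5.04e-09). It was also lower in the knockout in DMSO (−1.93 ± 0.10, adjusted p = 2.23e-08). ITGB3, part of an integrin that binds MMP2, rose from 552 to 1101 CPM in wild type (1.00 ± 0.06, adjusted p = 3.27e-08), and PLAT, the tissue plasminogen activator, from 107 to 196 (0.87 ± 0.05, adjusted p = 7.90e-09). The knockout gave 2 higher and 3 lower in DMSO and 2 higher and 4 lower in JQ1. Of all genes, 3.47% were higher and 4.44% lower in DMSO, and 3.01% and 5.56% in JQ1.

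Of 13 tested substrates, 2 rose and 8 fell with JQ1 in wild type, and 3 rose and 4 fell in knockout. FN1, fibronectin, fell from 77.8 to 32.6 CPM in wild type (−1.26 ± 0.08, adjusted p = 4.19e-08), and FBN1, fibrillin-1, rose from 80.8 to 116 (0.52 ± 0.05, adjusted p = 1.73e-06). The knockout lowered 3 in DMSO and 2 in JQ1, with ACAN, aggrecan, at −1.19 ± 0.13 in DMSO (adjusted p = 4.30e-05). Among 11 ADAM genes 2 rose and 1 fell with JQ1 in wild type and 2 rose and 2 fell in knockout. ADAM23 rose from 29.3 to 57.5 CPM in wild type (0.97 ± 0.07, adjusted p = 9.36e-08) and ADAM15 from 82.5 to 150 (0.87 ± 0.07, adjusted p = 2.50e-07), while ADAM11 fell from 4.57 to 1.66 (−1.46 ± 0.20, adjusted p = 6.55e-05). The knockout gave 2 higher and 1 lower in DMSO and 2 higher and 0 lower in JQ1. Of 5 ADAMTS-like genes, 2 fell in wild type (ADAMTSL4 and THSD4) and 3 in knockout with JQ1, and 1, ADAMTSL1, was lower in the knockout in each treatment. Of 7 other matrix proteases, 3 rose and 3 fell with JQ1 in each genotype. CTSL, cathepsin L, rose from 52.6 to 90.3 CPM in wild type (0.78 ± 0.05, adjusted p = 9.37e-08). CTSK, cathepsin K, fell from 15.5 to 6.37 (−1.28 ± 0.12, adjusted p = 1.55e-06) and CTSS, cathepsin S, from 2.37 to 0.837 (−1.50 ± 0.24, adjusted p = 0.000196). The knockout lowered 2 of these 7 in DMSO and 1 in JQ1, CTSK in both. Over all genes, 33.1% and 34.4% were called for the drug and 7.92% and 8.57% for the knockout. With JQ1 in wild type the median log2 fold change was 0.28 for the transcription factors, 0.18 for the activators and inhibitors, −0.80 for the substrates, −0.09 for the ADAM genes, −0.47 for the ADAMTS-like genes and 0.05 for the other proteases, beside −0.03 for all genes. For the knockout in DMSO the medians were −0.05, −0.02, −0.31, −0.12, −0.07 and −0.35 in that order, beside −0.00.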

How the data were processed

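RNA was measured in 12 libraries of 4 groups of 3, grouped by the genotype and treatment labels. Titles call the cultures without drug untreated and the treatment field says DMSO, which was followed. The labels' protocols record removal of ribosomal RNA and a directional library kit. The submitters' processing notes name Trim Galore, cutadapt, FastQC, MultiQC, kallisto, DESeq2 and GRCh38.p10 without versions, roles or annotation. Deposited by the authors were estimated counts per gene symbol and, in another table, a normalized signal that entered 1 alternative.

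Here the estimated counts, planned for as counts, were rounded to whole numbers. Genes with low counts were removed with filterByExpr over the 4 groups, leaving 21698 of 56609 symbols with 99.9% of the counts of each library. Counts were scaled by TMM (factors 0.926 to 1.06) and fitted in 1 model of all 12 libraries with the quasi-likelihood test of edgeR 4.0.16 (R 4.3.3). Benjamini-Hochberg adjustment ran over all tested genes, and the threshold was 0.05. The SE was derived from the fold change and the F statistic, and can be too small for genes with few counts, such as MMP1. The procedure was tested on simulated data.

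Every member was accounted for by its symbol. Values in every library are given for members called in any comparison and for MMP and TIMP genes whose group mean reached 1 CPM. From each pathway list the text names genes out of the 3 ranked highest by adjusted p in a comparison, and some of those are not reported here. Members and lists were chosen with earlier results of these data known. Positions and lengths are from GENCODE release 29 (GRCh38), and overlapping genes are uncertain because strand use in counting is not given in the sources used here. Besides MMP1 and MMP24, the tested members ADAMTS3, ADAMTS9, ADAMTS17, MMP11, MMP16, MMP19, MMP25 and TIMP2 overlap exons of genes on the opposite strand. The alternatives tried were other scaling, DESeq2 1.42.0, no filter on low counts, a threshold of 0.01, fits of only the groups compared, a replicate block, limma 3.58.1 on log2 of the deposited signal plus 1, and leaving out each library.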

Additional observations from a re-analysis of the deposited data

Results flagged for a closer look

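The response of ADAMTS12 to JQ1 differed between the genotypes in the test of that difference. The knockout response minus the wild-type response was −0.705 on the log2 scale (edgeR's quasi-likelihood test, adjusted p = 0.0306). The mean fell from 42.3 to 31 CPM in wild type and from 33.4 to 15 CPM in knockout, lower in all 3 JQ1 libraries than in all 3 DMSO libraries of each genotype.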

How the results depend on the processing

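Of 51 calls of single members, 36 were kept in all alternatives, 15 were lost in at least 1 and none was reversed. Members called with JQ1 in wild type numbered 15 to 23 over the alternatives and in knockout 15 to 22, beside 18 and 20, and 17 to 20 in each genotype when single libraries were left out. Of the 5 called for the knockout in DMSO, the count was 2 at a threshold of 0.01 and 3 with limma on the deposited signal, and 2 to 8 when single libraries were left out. Of the 7 in JQ1, the count was 4 at 0.01 and 4 to 8 with libraries left out. For the difference between drug responses the count was 1, but 2 with DESeq2, which added ADAMTS1, 0 at 0.01, and 0 to 1 with libraries left out. A stricter threshold lowers counts by construction, and the cause of the other shifts was not tested. Fitting only the groups compared ended calls with JQ1 in knockout for ADAMTS3 (adjusted p = 0.075), ADAMTS6 (0.0633) and MMP17 (0.0641), and for the knockout in JQ1 for ADAMTS13 (0.102) and TIMP2 (0.0844). With limma on the signal, calls ended with JQ1 in wild type for ADAMTS9 (0.0821) and MMP25 (0.103), and for the knockout in ADAMTS20 in DMSO (0.0675) and ADAMTS13 in JQ1 (0.0585). Same-numbered replicates of different groups correlated at −0.115 to 0.0786 in their deviations from the group means, and different-numbered ones at −0.136 to 0.106. No shared signal of the replicate numbers was seen. These values cannot tell whether same-numbered libraries were handled together. With the replicate block the member counts were 18, 20, 5, 7 and 1. Genes with few counts, such as ADAMTS10, MMP8 and MMP25, are limited by depth.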

Other observations

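MMP23B, which did not pass the filter, had 0, 0 and 0 counts in wild-type DMSO, 3, 4 and 8 in wild-type JQ1, 2, 1 and 6 in knockout DMSO and 0, 3 and 10 in knockout JQ1. Without the filter on low counts it was called with JQ1 in wild type (adjusted p = 0.00215) and for the knockout in DMSO (adjusted p = 0.0475). Its near-identical copy, the pseudogene MMP23A, had at most 6 counts in a library, and reads can be divided between the copies.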
